A study of Homo sapiens with 6 samples.

Results

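A set of 44 genes that encode the machinery for licensing DNA replication origins and copying DNA at the fork was followed in SW872 cells treated with Apatinib. The genes were chosen by their symbols, before any filter, from the 57773 rows of the count table, and each symbol matched 1 row. They cover the origin recognition complex, the licensing factors, the firing factors, the 3 replicative polymerases, the sliding clamp and its loader, the single-strand binding protein RPA and the enzymes that finish Okazaki fragments. The MCM helicase genes were left out of the set. SW872 is an established human liposarcoma cell line, so the data describe 1 line in culture and no tumor tissue. RNA was sequenced from 3 replicates treated with 18 μM Apatinib for 24 h, labelled Apatinib 1 to 3 here, and from 3 replicates labelled as untreated, control 1 to 3. The titles and treatment labels separate the groups, but the protocol text attached to all 6 samples, controls included, describes the Apatinib treatment. The groups follow the titles and treatment labels. Apatinib is a tyrosine kinase inhibitor directed at the VEGF receptor. The study's methods call the replicates biological, and whether they came from separate cultures or days is not stated.

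Eukaryotic cells prepare origins in G1 phase and use them in S phase. The origin recognition complex, with CDC6 and CDT1, loads the MCM helicase onto DNA, and geminin blocks CDT1 once S phase has begun. The DBF4-CDC7 kinase, CDC45 and the GINS complex then turn the loaded helicase into an active fork. At the fork, polymerase alpha-primase lays down primers, RFC loads the PCNA clamp, polymerases epsilon and delta extend the strands, and FEN1, DNA2, RNase H2 and LIG1 process and join the lagging strand fragments. Many of these genes are known targets of E2F transcription factors and are transcribed mainly in cycling cells.

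Total counts ranged from 17043314 to 22067558 per sample. After removal of genes with low counts, 16290 were left and were tested with the quasi-likelihood method of edgeR, whose adjusted p (Benjamini-Hochberg) is called FDR. Fold changes are printed with their standard error after ±, except where SD is named. A gene was called a DEG at an FDR under 0.05 with a log2 fold change above 0.5 in size, where a value below 0 means lower expression with Apatinib. Levels are given as CPM, which are counts scaled to library size with TMM factors, unless FPKM is named. Control 1 and control 2 were unusually close. The chi-square between them averaged 2.27 over genes, whereas the remaining pairs within a group gave 18.2 to 44.5. The labels list them as separate samples, but they may be repeats of 1 sample, and whether they are is not stated. If so, n = 3 counts 1 control too many and the SD of the controls is too small, wherever these are printed. The line held abundant mesenchymal transcripts, with a mean of 936 FPKM for VIM and 285 FPKM for FN1 in the control. The adipocyte markers FABP4 and ADIPOQ and the immune marker PTPRC had 0 counts in every sample, but other markers on these lists were present. PPARG, an adipocyte regulator, had 859 to 1138 counts, and CD14, a monocyte marker, had 40 to 107. CD68, a macrophage marker, had 0 or 1 count but 6.78 to 11.8 FPKM with Apatinib and 1.79 to 3.3 FPKM in the control, so that the deposited tables differ for it. Of the 6 mesenchymal markers 5 had a log2 fold change above 0, with a median of 0.42, and COL1A2 (0.46, edgeR FDR = 0.0391) and FN1 (0.44, edgeR FDR = 0.0459) passed the FDR limit but not the fold change limit. The part of this in the results was not tested. DEGs among the tested markers were 0 of 6 mesenchymal, 1 of 3 adipocyte (LPL), 1 epithelial (ESRP1), 0 of 1 immune and 2 endothelial genes (CDH5 and VWF), the last 3 at no more than 56 counts in any sample.

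Replication genes were lower with Apatinib across nearly every step of the pathway. All 44 passed the filter and were tested, 40 had a log2 fold change below 0, and 17 were DEGs, all of them lower. Over all genes tested, 11.6% were DEGs, 5.52% were DEGs lower and 6.04% DEGs higher with Apatinib, and 49.7% had a log2 fold change below 0. The median log2 fold change was -0.53 over the 44 genes and 0 over all genes tested. In 30 of the 44 all treated samples lay below all controls, which held for 15.7% of all genes tested. In none of the 44 did all treated samples lie above, which held for 17.5%. The lowest value was that of DNA2, at -1.12, and the highest that of POLD4, at 0.29. POLD3, RPA2 and POLA2 passed the FDR limit with values of -0.50, -0.49 and -0.48, just short of the fold change limit. In bulk RNA, fewer cells in S phase and less of each transcript per cell cannot be told apart.

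The calls rested on control 1 and control 2 together. Without control 1, edgeR called none of the 44 genes, and the FDR of the 17 DEGs ran from 0.0514 to 0.200. The count was also 0 without control 2, where the FDR ran from 0.0513 to 0.138, and 0 when control 1 and control 2 were summed as 1 sample. In each of these 3 fits 25 of the 44 genes had an unadjusted p under 0.05, and edgeR called 1.65%, 1.71% and 1.83% of all genes. DESeq2 on the same samples called 12, 9 and 11 of the 44 genes, beside 6.31%, 5.58% and 6.4% of all genes with an FDR. In each of the 3 fits 41 of the 44 genes had a log2 fold change below 0.

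Calls of single genes also depended on the other libraries. Without Apatinib 2 there were 11 DEGs among the 44 genes (8.76% of all genes), and the median was -0.39, the value nearest to 0 among the fits that left out 1 replicate. ORC3, CDC6, DBF4, CDC45, GINS4, WDHD1, POLE and POLE2 lost their calls there. Of these, CDC6 (-0.43), CDC45 (-0.48) and GINS4 (-0.45) still passed the FDR limit (edgeR FDR = 0.0401, 0.0356 and 0.0432) and missed only the fold change limit. ORC3 (-0.60), DBF4 (-0.56), WDHD1 (-0.74) and POLE2 (-0.51) missed only the FDR limit, and POLE (-0.40) missed both. Without Apatinib 1, where 5.23% of all genes were called, there were 15 DEGs, and ORC3, DBF4, WDHD1, POLE2, RFC1 and FEN1 were lost. These 6 missed the FDR limit alone, with fold changes near or beyond the full fit, from -0.53 for RFC1 to -0.98 for FEN1. ORC1 (-0.89), GINS4 (-0.66) and POLE (-0.62) were lost on the FDR without Apatinib 3 (11.9% of all genes), and ORC1 (-0.72) and FEN1 (-0.74) on the FDR without control 3 (16% of all genes). GMNN, CDC7, GINS2, POLA1, RFC3 and DNA2 stayed DEGs in each of these 4 fits. DESeq2 called 20 of the 44 genes (13.8% of the genes with an FDR), edgeR without a filter called 23 (7.56%), and edgeR with the replicate number as a block called 25 (13.8%). Limma on FPKM called 8 with a pseudocount of 1 (4.98%) and 7 with one of 0.1 (5.07%), and 0 without a filter (0.0355%), where 28 of the 44 had an unadjusted p under 0.05.

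**Figure D1:**
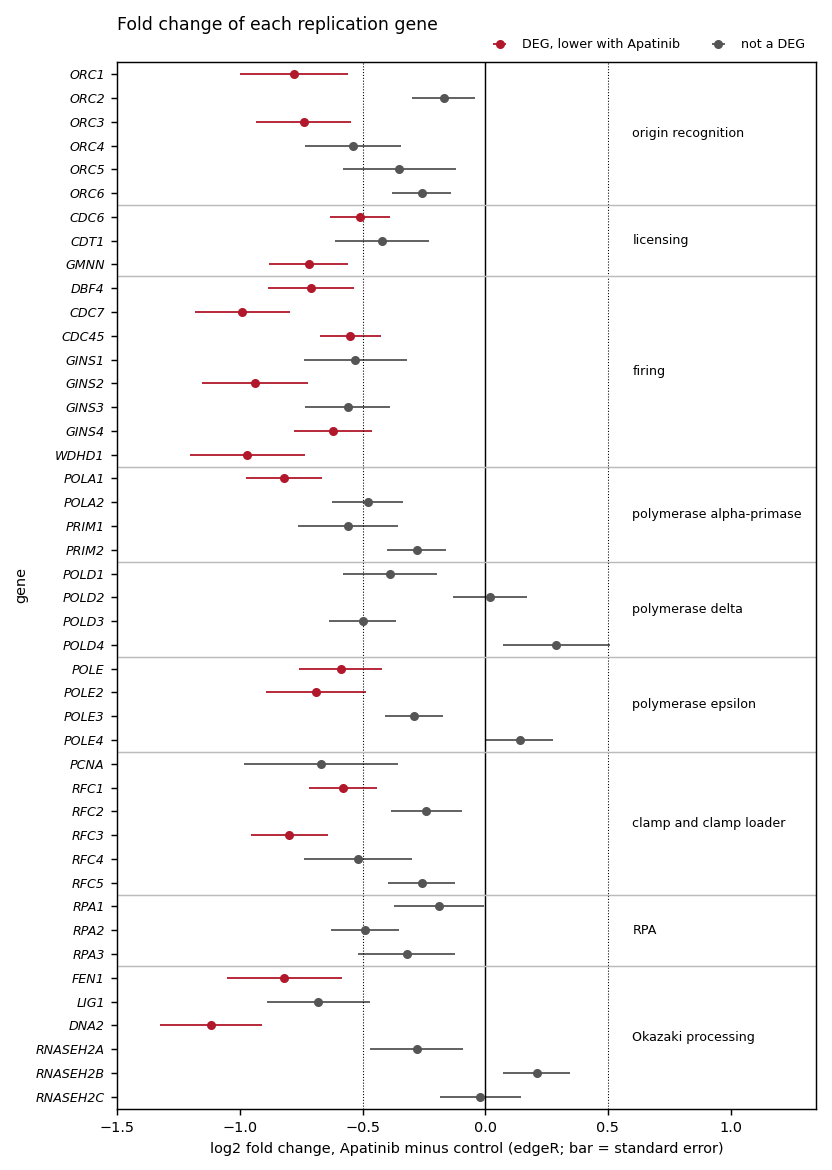
The horizontal axis gives the log2 fold change of Apatinib minus control from edgeR with its standard error, and each row is 1 of the 44 genes, grouped by role. The 17 DEGs are red, the dotted lines mark the fold change limit of 0.5 in size, and only POLD2, POLD4, POLE4 and RNASEH2B lie above 0.

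Promoter sequence was examined because many replication genes are E2F targets. RefSeq windows of 250 bases before to 50 bases after the start site (GRCh38.p14) were matched by symbol to 39 of the 44 genes. They were searched on both strands for the E2F letters TTTGGCGC, TTTCCCGC, TTTGCCGC and TTTCGCGC. At least 1 match stood in a window of 16 of the 39 genes (41.0%), against 6.6% of the 10291 tested genes with a window. Matches were in windows of 9 of the 15 DEGs with a window and in 7 of the 24 other members. The 16 genes with a match had a median log2 fold change of -0.68, from -0.99 for CDC7 to 0.14 for POLE4, and the 23 without had one of -0.29, from -0.97 to 0.29. The cell cycle homology region, searched as TTTGAA and TTCGAA, stood in windows of 2 of the 39 genes (5.13%), against 15.6% of tested genes. A shorter E2F core, the same letters without the first T and so contained in them, gave a smaller contrast, in 25 of the 39 genes (64.1%) against 24.9% of tested genes. It stood in 12 of the 15 DEGs and 13 of the 24 other members, and genes without the longer letters such as ORC1, WDHD1 and RFC1 held it. CCAAT stood in 21 of the 39 (53.8%), against 43.0%. A match of letters is a description of these windows and not a shown site of binding.

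These stretches run from 140 bases before to 10 bases after the start site on the strand of the gene, with E2F letters, read on either strand, in capitals. The first 6 belong to DEGs with a match, chosen to show where it lies. DEGs without a match, which were ORC1, DBF4, CDC45, WDHD1, RFC1 and FEN1, are not printed, so the panel does not show how often match and call go together. POLE4 has a match and was not a DEG, in the same complex as POLE and POLE2. POLD2 and ORC2 have no match and were not DEGs.
CDC7 (chr1:91500972-91501121, plus strand): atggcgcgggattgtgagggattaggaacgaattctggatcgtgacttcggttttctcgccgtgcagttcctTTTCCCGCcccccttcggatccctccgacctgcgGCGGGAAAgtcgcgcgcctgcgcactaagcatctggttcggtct
GINS2 (chr16:85688945-85689094, minus strand): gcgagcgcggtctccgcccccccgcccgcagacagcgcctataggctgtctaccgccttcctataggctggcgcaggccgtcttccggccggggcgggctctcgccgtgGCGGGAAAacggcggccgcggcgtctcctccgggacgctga
POLA1 (chrX:24693778-24693927, plus strand): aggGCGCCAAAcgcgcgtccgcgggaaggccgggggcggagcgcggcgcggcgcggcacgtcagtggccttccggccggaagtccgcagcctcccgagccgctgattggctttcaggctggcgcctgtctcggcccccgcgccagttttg
RFC3 (chr13:33818009-33818158, plus strand): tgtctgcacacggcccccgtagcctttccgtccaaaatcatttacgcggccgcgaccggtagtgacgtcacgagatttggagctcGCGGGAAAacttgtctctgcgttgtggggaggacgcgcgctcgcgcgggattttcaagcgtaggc
POLE (chr12:132687333-132687482, minus strand): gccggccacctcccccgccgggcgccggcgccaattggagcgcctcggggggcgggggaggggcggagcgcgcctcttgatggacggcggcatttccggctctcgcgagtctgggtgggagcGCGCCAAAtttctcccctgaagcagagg
POLE2 (chr14:49688205-49688354, minus strand): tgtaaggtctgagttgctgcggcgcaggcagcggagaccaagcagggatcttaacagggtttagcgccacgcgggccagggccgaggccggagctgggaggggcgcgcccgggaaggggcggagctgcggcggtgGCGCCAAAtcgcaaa
POLE4 (chr2:74958503-74958652, plus strand): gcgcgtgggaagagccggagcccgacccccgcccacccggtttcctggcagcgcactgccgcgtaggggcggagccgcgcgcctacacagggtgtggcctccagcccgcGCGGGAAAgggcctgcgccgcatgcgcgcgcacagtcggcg
POLD2 (chr7:44123539-44123688, minus strand): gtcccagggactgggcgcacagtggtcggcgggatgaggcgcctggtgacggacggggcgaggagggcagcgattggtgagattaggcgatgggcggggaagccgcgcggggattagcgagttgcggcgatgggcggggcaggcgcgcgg
ORC2 (chr2:200963651-200963800, minus strand): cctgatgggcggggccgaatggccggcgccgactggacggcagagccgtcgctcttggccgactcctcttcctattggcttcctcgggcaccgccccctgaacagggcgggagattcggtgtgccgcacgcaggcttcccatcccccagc

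In CDC7 a second RefSeq start site exists, and the window shown is the one with 2 matches. The match began 31 bases before the start site in both GINS2, which fell by 0.94 on the log2 scale, and POLE4, whose log2 fold change was 0.14. Across the 39 genes there were 17 matches, of which 15 began between 137 and 5 bases before a start site and 2 after it.

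The origin recognition complex marks the sites where replication can begin. ORC1 and ORC3 fell, while ORC2, ORC4, ORC5 and ORC6 had log2 fold changes of -0.17, -0.54, -0.35 and -0.26 and were not DEGs. ORC1, the largest subunit and an ATPase whose level changes through the cell cycle, stood at 31.0, 14.9 and 28.7 CPM with Apatinib and at 41.4, 40.6 and 46.0 CPM in the control. The difference was -0.78 ± 0.222 on the log2 scale (edgeR FDR = 0.0416), and Apatinib 2 was far below the other treated samples. ORC3, a core subunit, stood at 26.4, 22.6 and 35.0 CPM against 53.0, 51.7 and 35.4 CPM. Here the groups were separated only narrowly, because control 3 lay just above Apatinib 3. The log2 fold change of ORC3 was -0.74 ± 0.193 (edgeR FDR = 0.0313). ORC2, also a core subunit, had 37.3, 43.2 and 42.1 CPM against 47.6, 49.6 and 40.9 CPM, and the groups overlapped. In ORC4 and ORC5, Apatinib 2 was the highest treated sample. ORC5 was at 57.0 CPM in Apatinib 2, above every control, but at 28.4 and 31.3 CPM in Apatinib 1 and 3, below every control. Both became DEGs without Apatinib 2, with log2 fold changes of -0.72 for ORC4 and -0.73 for ORC5 (edgeR FDR = 0.0446 and 0.0209).

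Among the licensing factors, CDC6 and GMNN fell and CDT1 was not a DEG. CDC6, the ATPase that helps load the helicase, stood at 72.3, 59.3 and 67.5 CPM with Apatinib and at 91.1, 97.5 and 95.7 CPM in the control. The groups did not overlap, and its log2 fold change of -0.51 (FDR by edgeR = 0.0225) lay close to the fold change limit. GMNN encodes geminin, the inhibitor of CDT1, and stood at 31.9, 25.1 and 38.2 CPM against 58.4, 52.1 and 47.1 CPM. All 3 treated samples were lower, with a change of -0.72 ± 0.162 (log2, edgeR FDR = 0.0184). CDT1, the helicase loading factor itself, stood at 68.2, 39.5 and 49.7 CPM against 63.3, 63.1 and 83.8 CPM. Apatinib 1 lay above control 1 and control 2, and the log2 fold change was -0.42 (edgeR FDR = 0.165). On the FPKM scale the ratio of CDT1 to GMNN was 0.768, 0.575 and 0.474 with Apatinib. The controls gave 0.394, 0.432 and 0.632, and the groups overlapped.

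Firing factors turn the loaded helicase into a moving fork. Of 8 genes, 6 were DEGs, all 8 had every Apatinib replicate below every control replicate, and the group's median was -0.66. Over all genes tested, 5.52% were DEGs lower with Apatinib and 15.7% had all treated samples below all controls. All 6 calls were lost without control 1 or without control 2. CDC7, the kinase that phosphorylates the loaded helicase, stood at 22.8, 23.9 and 31.9 CPM with Apatinib and at 58.7, 60 and 37.9 CPM in the control. Treated cells held 50.2% of the control mean, a change of -0.99 ± 0.194 (log2, edgeR FDR = 0.0113), and control 3 was the lowest control. DBF4, its activating subunit, stood at 37.1, 30.5 and 46.6 CPM against 59.2, 74.6 and 53.0 CPM. The fall of DBF4 was smaller, at -0.71 (edgeR FDR = 0.0268).

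CDC45, which joins the helicase as the fork is activated, stood at 37.2, 31.1 and 34.9 CPM against 47.2, 51.7 and 52.4 CPM. Its replicates were tight in both groups, and the log2 fold change was -0.55 ± 0.125 (edgeR FDR = 0.0193). Within the GINS complex, GINS2 and GINS4 fell. GINS2 stood at 30, 14.9 and 28.6 CPM against 45.7, 45.3 and 49.7 CPM, a change of -0.94 ± 0.216 (log2, edgeR FDR = 0.0207). For GINS4 the values were 42.4, 27.1 and 38.2 CPM against 52.6, 55.4 and 57.3 CPM, with a change of -0.62 on the log2 scale (edgeR FDR = 0.0303). In both genes Apatinib 2 was the lowest sample. GINS3 had a log2 fold change of -0.56 with an edgeR FDR of 0.0536. GINS1 stood at 105, 55.7 and 109 CPM against 122, 125 and 142 CPM, and its log2 fold change of -0.53 (edgeR FDR = 0.115) was -0.27 without Apatinib 2. WDHD1, which links the helicase to polymerase alpha, stood at 42.7, 30.4 and 63.3 CPM against 99.5, 98.1 and 69.4 CPM. It fell to 51.1% of the control mean, a change of -0.97 ± 0.233 (log2, edgeR FDR = 0.0237), with Apatinib 3 and control 3 lying close together.

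Polymerase alpha-primase starts each new strand. All 4 of its genes had every Apatinib replicate below every control replicate, against 15.7% of all genes tested, but POLA1 was its only DEG. POLA1, the catalytic polymerase subunit, stood at 54.6, 43.2 and 64.8 CPM with Apatinib and at 98.2, 104 and 85.8 CPM in the control. Treated cells held 56.5% of the control mean, a change of -0.82 ± 0.156 (log2, edgeR FDR = 0.0103). POLA2, the accessory subunit, had a log2 fold change of -0.48, and PRIM1, the catalytic primase subunit, one of -0.56 (edgeR FDR = 0.0464 and 0.0904). PRIM2, the large primase subunit, stood at 41.5, 37.1 and 42.6 CPM against 48.0, 49.8 and 49.7 CPM. The difference was small next to that of POLA1, with a change of -0.28 on the log2 scale (edgeR FDR = 0.134).

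Polymerase delta, which extends the lagging strand, had no DEG. POLD3, an accessory subunit, stood at 43.0, 36.5 and 49.1 CPM with Apatinib and at 60.3, 64.4 and 57.2 CPM in the control. Its groups did not overlap, and it differed by -0.50 on the log2 scale (edgeR FDR = 0.0366). The catalytic subunit POLD1 had a change of -0.39 on the log2 scale (edgeR FDR = 0.193). POLD2 was named after its values were seen, because it is the most abundant of the 4 on the FPKM scale. It stood at 191, 142 and 147 CPM against 143, 148 and 183 CPM, and its log2 fold change was 0.02 ± 0.150 (edgeR FDR = 0.950). POLD4, the smallest subunit, had between 51 and 82 counts per sample, or 4.47, 3.27 and 4.29 CPM against 2.94, 3.13 and 3.75 CPM. Its log2 fold change was 0.29 (edgeR FDR = 0.404). The counts of POLD4 were low next to its FPKM of 25.2 to 36.7, and its exons overlap AP003419.1 on the same strand in GENCODE 29, so its counts are uncertain.

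In polymerase epsilon, the leading strand enzyme, POLE and POLE2 fell, while the histone-fold subunits POLE3 and POLE4 had log2 fold changes of -0.29 and 0.14 and were not DEGs. POLE, the catalytic subunit, stood at 123, 73.8 and 106 CPM with Apatinib and at 149, 147 and 159 CPM in the control, a change of -0.59 ± 0.168 (log2, edgeR FDR = 0.0418). POLE2, its partner subunit, stood at 17.1, 13.1 and 22.7 CPM against 34.0, 27.3 and 24.1 CPM, a change of -0.69 ± 0.203 (log2, edgeR FDR = 0.0457). Both calls were lost without Apatinib 2, where the log2 fold changes were -0.40 and -0.51 (edgeR FDR = 0.0564 and 0.1). With a correction for GC content POLE2 was at -0.28 and POLE3 at -0.35 (edgeR FDR = 0.294 and 0.0279), and the difference between subunits was not tested. POLE4 stood at 53.4, 43.0 and 43.3 CPM against 40.8, 38.9 and 47.0 CPM, and the groups overlapped (edgeR FDR = 0.529).

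In the clamp and its loader, RFC1 and RFC3 fell. RFC1, the large subunit that sets the PCNA loader apart from related loaders, stood at 75.7, 77.3 and 91.9 CPM with Apatinib and at 128, 134 and 105 CPM in the control. Its log2 fold change was -0.58 ± 0.137 (edgeR FDR = 0.0223). RFC3, one of the small subunits, stood at 29.1, 26.5 and 35.5 CPM against 55.8, 59.3 and 44.0 CPM. It held 57.4% of the control mean, a change of -0.80 ± 0.157 (log2, edgeR FDR = 0.0113). The other small subunits RFC2, RFC4 and RFC5 had log2 fold changes of -0.24, -0.52 and -0.26 and were not DEGs. RFC2 stood at 108, 75.8 and 91.3 CPM against 104, 103 and 118 CPM, with overlap between the groups.

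PCNA, the clamp itself, was named after its values were seen because 1 library set its fold change. It stood at 205, 69.9 and 228 CPM with Apatinib and at 260, 267 and 273 CPM in the control. All 3 treated samples were below the controls, but Apatinib 2 held only 32.3% of the mean of Apatinib 1 and 3, the widest gap of that kind among the 44 genes. The log2 fold change of PCNA was -0.67 ± 0.315 (edgeR FDR = 0.175), and -0.29 without Apatinib 2 (edgeR FDR = 0.106). Pseudogenes named PCNAP1, PCNAP3 and PCNAP4 stand in GENCODE 29, and how the counting treated reads shared with them is not stated.

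RPA, which coats single-stranded DNA, had no DEG. RPA2 stood at 47.2, 37.3 and 43.3 CPM with Apatinib and at 54.6, 57.2 and 67.1 CPM in the control, and the groups did not overlap. Its log2 fold change of -0.49 passed the FDR limit (edgeR FDR = 0.0396) but not the fold change limit. RPA1, the large DNA-binding subunit, stood at 301, 170 and 269 CPM against 266, 272 and 307 CPM. Only Apatinib 2 was below the control range by a wide margin, and the log2 fold change of -0.19 (edgeR FDR = 0.525) was 0.02 without it. The value of RPA3 was -0.32 on the log2 scale (edgeR FDR = 0.298).

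Among the enzymes that finish Okazaki fragments, DNA2 and FEN1 fell and the RNase H2 genes did not pass the test. DNA2, a nuclease and helicase that cuts long flaps, stood at 8.77, 8.06 and 13.5 CPM with Apatinib and at 24.0, 23.9 and 18.1 CPM in the control. It held 45.9% of the control mean, a change of -1.12 ± 0.208 (log2, edgeR FDR = 0.00974), the smallest FDR of the set. FEN1, the main flap endonuclease, stood at 77.0, 35.8 and 76.2 CPM against 104, 107 and 123 CPM. The difference was -0.82 ± 0.235 on the log2 scale (edgeR FDR = 0.0426), with Apatinib 2 at 46.7% of the mean of Apatinib 1 and 3. LIG1, the ligase that seals the fragments, had a log2 fold change of -0.68 and an edgeR FDR of 0.0557. RNASEH2A, the catalytic subunit of RNase H2, and RNASEH2C had log2 fold changes of -0.28 and -0.02 (edgeR FDR = 0.355 and 0.954). RNASEH2B stood at 31.9, 32.8 and 26.1 CPM against 27.2, 26.0 and 25.4 CPM, and it differed by 0.21 on the log2 scale (edgeR FDR = 0.329).

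The treated samples were unequal. Apatinib 2 was the lowest treated sample for 37 of the 44 genes, against 6 for Apatinib 1 and 1 for Apatinib 3. The median of the 44 genes, as log2 CPM minus the control mean, was -0.86 in Apatinib 2, -0.37 in Apatinib 1 and -0.40 in Apatinib 3, while the median of all genes tested lay between -0.02 and 0.01 in these samples. For 12 genes Apatinib 2 was under 60% of the mean of Apatinib 1 and 3. These included PCNA, FEN1, ORC1 and GINS2. Apatinib 2 was above that mean for 5 genes, which were ORC2, ORC4, ORC5, ORC6 and RNASEH2B, so that 4 of the 6 origin recognition genes ran against the rest. The median of the origin recognition group was accordingly -0.62 in Apatinib 1, -0.19 in Apatinib 2 and -0.47 in Apatinib 3, against -0.54, -1.06 and -0.50 for the firing factors. The total count was 17275850 in Apatinib 2, 18081919 in Apatinib 1 and 17352210 in Apatinib 3, and the part of depth in this pattern was not tested.

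**Figure D2:**
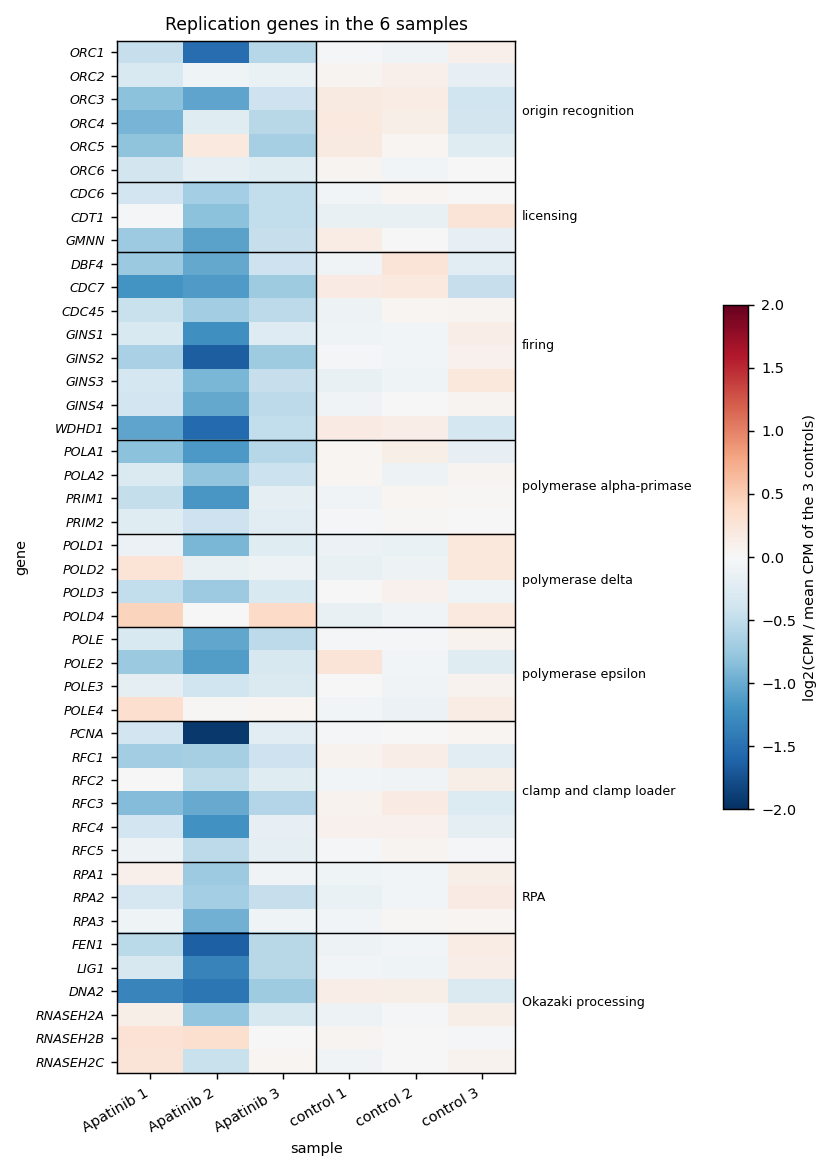
Each row is 1 of the 44 genes and each column 1 sample, with color giving log2 of the CPM over the mean CPM of the 3 controls (blue is lower, red is higher). Apatinib 2 is the lowest treated column for 37 genes but not for ORC2, ORC4, ORC5 and ORC6, and control 3 is blue where control 1 and 2 are red for CDC7, WDHD1, ORC3 and DNA2.

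Control 3 differed from control 1 and control 2 along base composition, and so did the contrast between the groups. Control 3 was under 80% of the mean of control 1 and 2 for 9 genes, among them CDC7 at 63.9%, ORC3 at 67.6% and WDHD1 at 70.2%. All 9 had transcripts of under 45% GC, a class that held 18 of the 44 genes. Across the 44 genes, Pearson's r between GC content and the log2 difference of control 3 from control 1 and 2 was 0.799, a description over genes that share the same libraries. Over all genes tested, the median log2 fold change ran from -0.43 for genes under 40% GC to 0.17 for genes over 55% GC. In the class from 50 to 55% GC, 8 replication genes had a median of -0.59, beside 0.08 for all 2787 genes of that class. Under 40% GC, 7 replication genes had a median of -0.71, beside -0.43 for all 1217 genes, of which 22.2% were DEGs lower with Apatinib. A correction for GC content was therefore added after seeing the data.

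With each sample corrected for GC content in edgeR, 39 of the 44 genes had a log2 fold change below 0, the median was -0.44, and 16 were DEGs, against 8.5% of all genes. Only 10 DEGs were shared with the uncorrected fit. CDC7, POLA1, RFC3, DNA2, ORC1, CDC45, GINS2, GINS4, POLE and FEN1 stayed below 0 as DEGs. The 7 lost were ORC3, CDC6, GMNN, DBF4, WDHD1, POLE2 and RFC1. CDC6 moved from -0.51 to -0.45 and RFC1 from -0.58 to -0.30, and both still passed the FDR limit (edgeR FDR = 0.0287 and 0.042). WDHD1 moved from -0.97 to -0.60 (edgeR FDR = 0.0651) and missed only the FDR limit. GMNN at -0.45, DBF4 at -0.36, ORC3 at -0.35 and POLE2 at -0.28 missed both limits (edgeR FDR = 0.0588, 0.122, 0.113 and 0.294). The 6 gained were CDT1, GINS3, POLA2, POLD1, RPA2 and LIG1, of which CDT1 moved from -0.42 to -0.69 (edgeR FDR = 0.0131) and LIG1 from -0.68 to -0.88 (edgeR FDR = 0.0172).

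**Figure D3:**
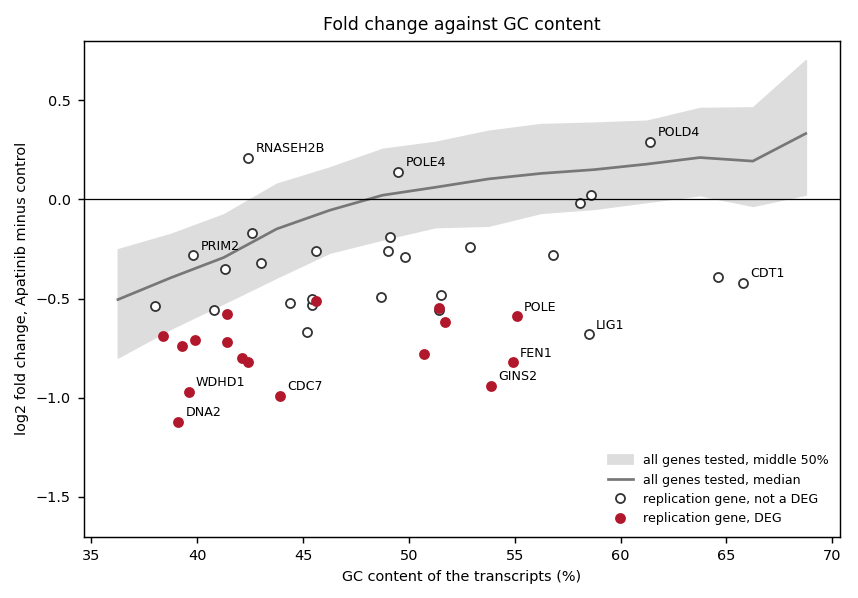
The horizontal axis gives the GC content of each gene's transcripts in percent and the vertical axis its log2 fold change, with the median and the middle 50% of all genes tested in grey. Of the 44 replication genes, 32 lie below the grey band, 11 inside it and 1 above it, and among the 7 under 40% GC the 5 below it are DNA2, WDHD1, ORC3, DBF4 and POLE2, while PRIM2 and ORC4 lie inside.

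The subunits of a complex differed in transcript level, which FPKM allows to be compared because it is scaled to length. The deposited FPKM and counts did not always run together. RNASEH2C was at 35.8, 35.4 and 36.2 FPKM with Apatinib but at 94.2, 57.5 and 80.9 CPM. In the control, POLD2 stood at 67.5 ± 8.60 FPKM (SD, n = 3), against 23.7 ± 2.61 for POLD1 and 13.0 ± 1.13 for POLD3. ORC6 was the highest origin recognition subunit at 24.1 ± 1.63 FPKM and ORC4 the lowest at 5.45 ± 0.957 FPKM, while ORC1 at 9.24 ± 0.516 and ORC2 at 8.82 ± 0.941 FPKM were within their spread. In the loader, RFC2 at 49.1 ± 2.29 FPKM stood above RFC4, RFC1, RFC5 and RFC3, and the last 3, from 17.9 to 15.5 FPKM, were within their spread. Several DEGs held a smaller share of the summed FPKM of their complex with Apatinib, while that of GINS4 was 28.5% ± 2.58 in the control and 28.7% ± 3.29 with Apatinib (SD, n = 3 each). The share of POLE within polymerase epsilon was 19.4% ± 1.05 in the control and 14.8% ± 1.90 with Apatinib, and that of POLE4 was 29.7% ± 1.27 and 39.1% ± 2.74 (SD, n = 3 each). GINS2 made up 17.9% ± 0.0847 of GINS in the control and 14.1% ± 1.48 with Apatinib. POLA1 made up 17.9% ± 1.71 of polymerase alpha-primase in the control and 14.3% ± 0.803 with Apatinib. Shares of RFC3 were 12.6% ± 1.3 in the control and 9.85% ± 1.3 with Apatinib. These shares are descriptions, and a rise of one share lowers the others.

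**Figure D4:**
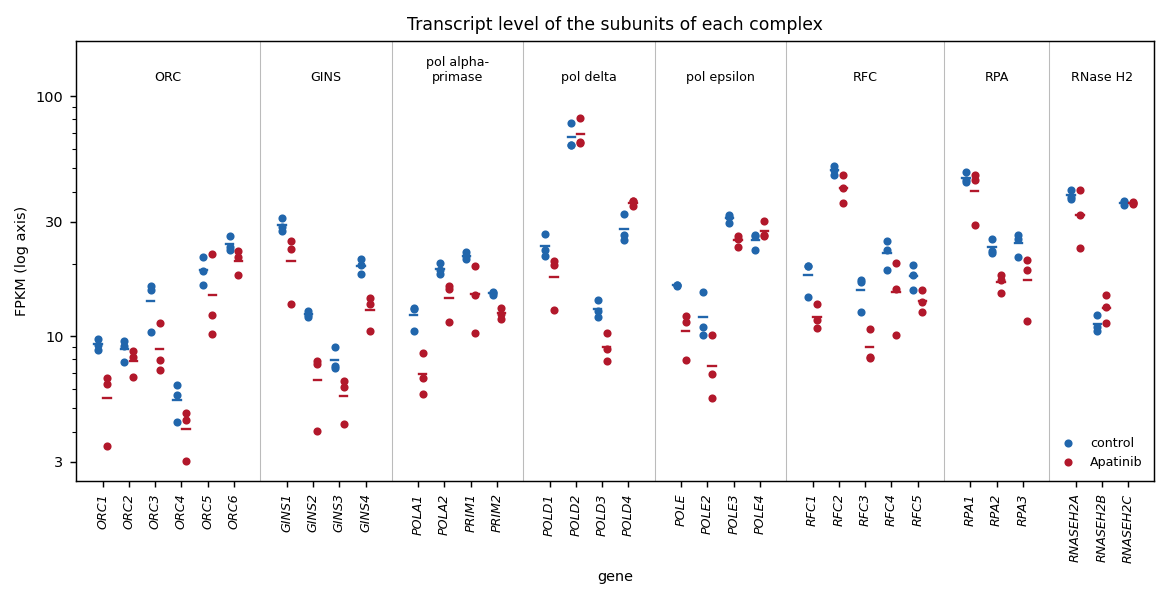
The vertical axis gives FPKM on a log scale for each subunit of 8 complexes, with 1 point per sample and a bar at the mean of 3 control (blue) or 3 Apatinib (red) samples. POLD2 is the highest subunit at 67.5 FPKM in the control, and the control and Apatinib points overlap for POLD2 and RNASEH2C but not for POLA1 or GINS2.

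Other genes of DNA replication were also mostly lower. This list holds MCM2 to MCM7 and MCM10, and also TOP2A, PARP1, XRCC1 and LIG3. Of 38 other replication factors tested, 37 had a log2 fold change below 0, with a median of -0.51. DEGs numbered 15, all lower, beside 11.6% of all genes tested called in either direction and 5.52% called lower. MCM3, MCM4 and MCM10 were among the 15. CLSPN, the checkpoint mediator at the fork, had the smallest p value, with a change of -1.31 on the log2 scale (edgeR FDR = 0.00349). ESCO2, which acetylates cohesin during replication, and MMS22L, which acts at stalled forks, followed with -1.29 and -1 (edgeR FDR = 0.00582 and 0.00739), and with the GC correction MMS22L was at -0.55 (edgeR FDR = 0.022). Of 15 tested genes for DNA polymerases outside the main fork, 10 were below 0, with a median of -0.21. The list includes the accessory subunits MAD2L2 and POLG2 and the reverse transcriptase TERT. Of the 15, 2 were DEGs, both lower, beside 11.6% of all genes called in either direction and 5.52% called lower. These DEGs were POLQ, the polymerase of end joining, at -1.28 and REV3L, the catalytic subunit of polymerase zeta, at -0.85 (edgeR FDR = 0.00629 and 0.0300). The call of REV3L was lost when any library except control 3 was left out (edgeR FDR from 0.0541 to 0.134) and with controls 1 and 2 summed (edgeR FDR = 0.129). With the GC correction REV3L was at -0.39 (edgeR FDR = 0.0953). POLK, a translesion polymerase, had the third smallest p value with -0.69 (edgeR FDR = 0.0721). The difference between these lists was not tested.

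Some of the counts could include reads of neighboring genes, since the strand setting of the counting is not stated. In GENCODE 29, exons of 16 of the 44 genes overlap a gene on the opposite strand and those of 7 overlap one on the same strand. Among the 17 DEGs this holds for DBF4 with SLC25A40, GINS2 with GSE1, GINS4 with AC009630.1 and AC009630.2, and FEN1 with TMEM258, all on the opposite strand, and for FEN1 with FADS2 on the same strand. A pseudogene bearing the gene's name exists for DBF4, RFC3 and FEN1.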

How the data were processed

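The 44 genes, the groups they were placed in and the other lists were chosen with earlier results of these data known. The authors deposited a table of counts, whole numbers without normalization, and for each sample FPKM values, which the authors scaled to transcript length and mapped fragments. The submitters' processing notes name CASAVA, STAR 2.7.1a and hg19. The counting program, the FPKM program and the annotation are not given in the sources used here. In the FPKM values of Apatinib 1 a further column carries the label of control 3, and this 1 column was not used.

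Samples were grouped by their titles. The 44 symbols were matched to the name column of the count table. In R 4.3.3, edgeR 4.0.16 was run on the counts with filterByExpr, TMM factors (0.952 to 1.03), robust dispersions and the quasi-likelihood test over all 16290 genes that passed, without a block. The limits for a DEG, 0.05 on the FDR and 0.5 on the size of the log2 fold change, are those of the study's methods, which used DESeq2. The log2 CPM values used a prior count of 2. Every member of the set is given a fold change, and sample values are printed for each DEG and, within each role, for the gene with the smallest p value and the gene highest above or nearest to 0. Those of ORC5, POLD2 and PCNA are printed outside this rule. For the other lists the 3 genes with the smallest p values are named.

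The alternatives were DESeq2 1.42.0, RLE factors, no filter beyond a total of 1 count, a stricter filter (a minimum of 10 in all samples), a block for the replicate number, summing controls 1 and 2, an FDR limit alone, leaving out each replicate, and limma 3.58.1 on FPKM with a pseudocount of 1 (with and without a minimum mean of 0.5) or 0.1. A loess correction for GC content (span 0.3, GC from GENCODE 29 transcripts, known for 97.1% of the genes tested) and a fit without robust dispersions were added after seeing the data. The fits were also run on simulated counts with known changes, drawn independently for each sample. That simulation had no near-duplicate controls and no GC trend, so it does not cover these features of the data. Promoter windows came from RefSeq tables of GRCh38.p14, and the positions of the printed stretches are on that build. No positions are given on hg19, the build of the files. Of the marker lists, 6 of 6 mesenchymal, 3 of 6 adipocyte, 1 of 4 epithelial, 1 of 4 immune and 2 of 3 endothelial genes with a row passed the filter.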

Additional observations from a re-analysis of the deposited data

How the results depend on the processing

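The direction of the set held in every alternative, with 38 to 41 of the 44 genes lower and a median between -0.59 and -0.39. The count of DEGs among the 44 genes, 17, was 0 with controls 1 and 2 summed, 8 and 7 with limma on log2(FPKM + 1) and log2(FPKM + 0.1), and 0 with limma without a filter, where 28 of the 44 had an unadjusted p under 0.05. It ranged from 0 to 17 when 1 replicate was left out, and was 23 with no filter on low counts and 20 with DESeq2. The count over all genes, 1884, was 306 with controls 1 and 2 summed, 789 and 803 with the filtered limma fits, 12 with limma without a filter, and 275 to 2684 with 1 replicate left out. Among the other replication factors it went from 15 to 4 with the controls summed, 8 and 7 with limma, 0 with limma without a filter, and 4 to 15 with 1 replicate left out. Among the genes for polymerases outside the main fork it went from 2 to 1 with the controls summed, with the filtered limma fits and with the GC correction. It was 0 with limma without a filter, and 1 to 4 with 1 replicate left out.

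Log2 fold changes that changed sign were those of ORC2 (0.03) and PRIM2 (0.07) with the GC correction, and of POLD2 (-0.18 with that correction, -0.04 with controls 1 and 2 summed, -0.13 to 0.14 with 1 replicate left out). With 1 replicate left out RPA1 ranged from -0.35 to 0.02 and RNASEH2C from -0.18 to 0.16. None of these genes was a DEG. Same-numbered samples had deviations correlated at -0.259, 0.0808 and -0.22, and Apatinib 1 correlated best with control 3 (0.387). Deviations were taken from the mean of 3 samples, and control 1 and control 2 were close. These values therefore cannot show whether replicate numbers pair the samples. With the replicate number as a block there were 25 DEGs among the 44 genes, which included all 17, and 2247 over all genes. With 3 replicates a group, a p value that misses the limit does not show that a gene did not differ.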
